A study of Mus musculus with 7 samples.

Results

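Granins and the granule membrane proteins Ptprn and Ptprn2 belong to the dense-core secretory granules in which islet cells store glucagon, insulin, or somatostatin. Chromatin accessibility was described here at 8 genes, Chga, Chgb, Scg2, Scg3, Scg5, Vgf, Ptprn, and Ptprn2, of 21728 protein-coding genes on chromosomes 1 to 19 and X. The genes were chosen by name, and their loci were taken as the annotated gene body with 20 kb on each side on GRCm38 (mm10). Every ATAC-Seq peak that overlapped such a window was counted, which gave 498 of the 834695 regions that remained when the overlapping peaks of all libraries were merged. Alpha, beta, and delta cells were sorted by FACS from healthy mice that carried mIns1-H2b-mCherry and Rosa-LSL-YFP together with either Gcg-Cre or Sst-Cre. The Ins1 promoter drives the mCherry that marks beta cells, whereas Cre switches on YFP in alpha cells through the Gcg promoter or in delta cells through the Sst promoter, so a library holds the cells in which these drivers were active. Animals were pooled by sex, with an age that the labels do not give, and the 7 libraries are 2 alpha, 3 beta, and 2 delta replicates. Beta cells carry their own marker in both crosses and can come from the same animals as alpha or delta cells. The study states that it compared cell types from the same animals, but the labels do not say which libraries share them. The permutation tests therefore treat libraries as independent and use no pairing, and p-values measure the spread between these pooled samples.

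Granins are acidic proteins that aggregate with hormones in the trans-Golgi network and enter the granule with them. Several are also precursors that prohormone convertases cut into peptides. Ptprn and Ptprn2 span the granule membrane and resemble tyrosine phosphatases without the usual catalytic activity. All of these proteins are shared by many neuroendocrine cells, and in such cells their genes are commonly transcribed at high levels. In ATAC-Seq the transposase Tn5 cuts DNA that nucleosomes leave free, so a peak marks open chromatin and not transcription.

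Peak lists held between 75860 distinct peaks in delta 2 and 518503 in beta 1, and each was called on its library alone. Because the length of a list says little about its quality, peaks were ranked by −log10 p within a list, with rank 1 the strongest, and the 50000 of lowest p were used where numbers of peaks were compared. Of the beta 1 peaks 4.996% reached a −log10 q of 2, against 29.8% to 54.9% elsewhere. Beta 2 stood apart in another way. Among genes with a peak at their 5′ end in all of the other libraries, 11.98% had none in beta 2, whereas 0.121% to 2.50% had none in each of the others. All 3 beta lists were deposited under names that point to a different cell type than the labels do, so the beta values depend on the labels being right. No beta library had a peak at the 5′ end of Gcg, and the peak of Ins1 ranked best in beta 1 and beta 3, but not in beta 2. Lane codes in the names of the lists were 6 for alpha 1, alpha 2, and beta 1 and 7 for the rest, so alpha and delta cells cannot be told apart from lane.

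Markers of the sorted cells were counted where a peak came within 1 kb of the annotated 5′ end, which is termed a TSS peak here. Of 6 alpha cell markers, TSS peaks were called for 6 in both alpha libraries, for 5 and 6 in the delta libraries, and for 3, 2, and 5 in the beta libraries. The Gcg peak ranked 7770 and 9453 in alpha 1 and alpha 2 and 40114 in delta 2, and no other library had one. Of 5 delta cell markers, 5 were found in both delta libraries, 4 in both alpha libraries, and 4, 0, and 1 in the beta libraries. Sst itself had a TSS peak in delta 1 (rank 130978), delta 2 (64898), and beta 1 (22879) only, so it was strongest in a library labelled beta. Of 8 beta cell markers, 5 to 7 were found in every library but beta 2, which had 3. The Ins1 peak ranked 6972 and 13849 in beta 1 and beta 3 and 35975 to 103286 in the others. The TSS markers of acinar cells numbered at most 3 of 6, and those of duct, endothelial, and immune cells at most 2 of 3. Of these, the acinar marker Bhlha15 (ranks 22037 to 103164) and the duct marker Cftr (27335 to 121175) had a TSS peak in all 7 libraries, and Ptprc, Cdh5, Krt19, and Cpa1 had one in none. By these counts the delta libraries resembled the alpha libraries more than the beta libraries did.

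TSS peaks of the 8 genes are compared first, because they show whether each gene carries an open 5′ end in every cell type. Scg2, Scg3, Scg5, and Ptprn2 had a TSS peak in all 7 libraries, which is 4 of 8 against 41.9% of all protein-coding genes. With a −log10 q of at least 2 in every library, Scg5 and Ptprn2 remained, or 2 of 8 against 31.3%. Both shares are near the background. Chgb and Ptprn lacked a TSS peak in beta 2 only, the library in which such peaks were missing most often in general. Beyond beta 2, Chga had none in beta 1, and Vgf had one in alpha 2 and beta 3 alone. Without beta 2, the number of genes with a TSS peak in every remaining library was 6 of 8, against 47.6% of protein-coding genes in the same libraries.

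**Figure D1:**
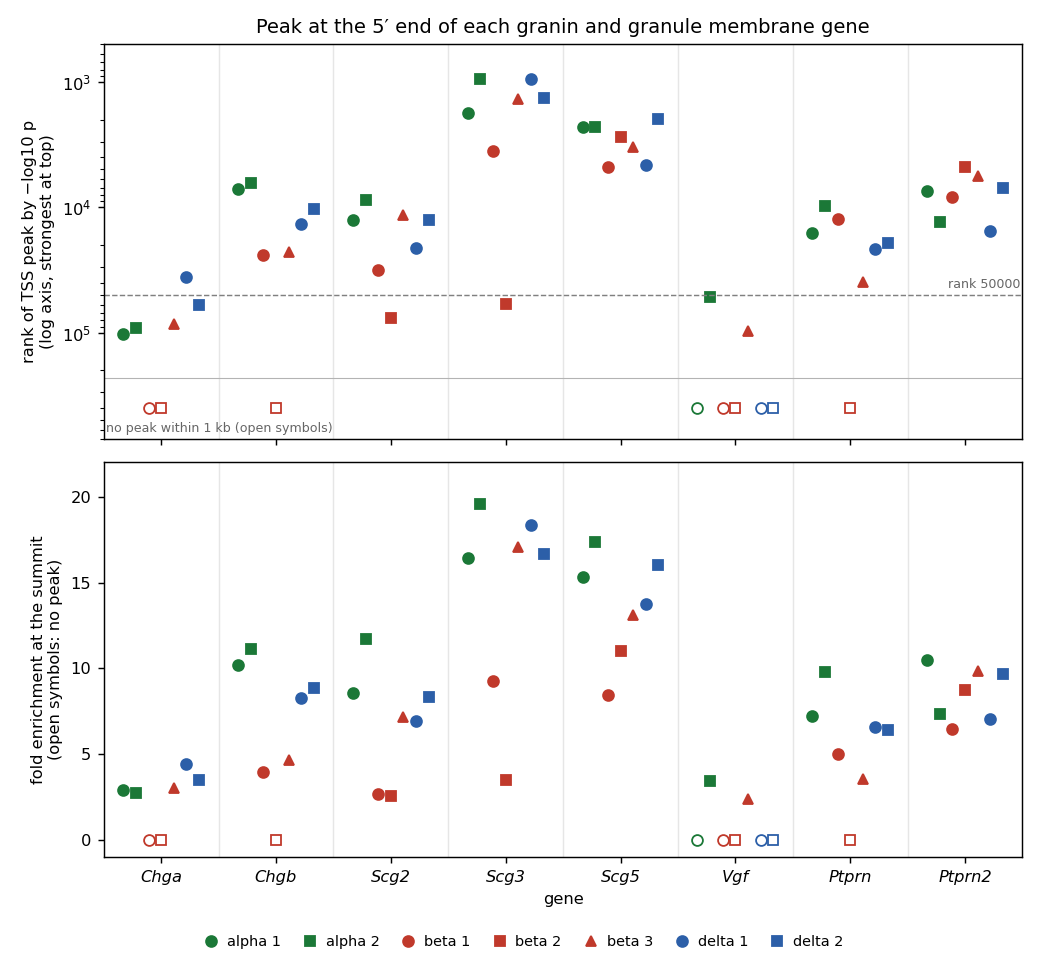
Rank by −log10 p (upper panel, log axis, strongest at the top) and fold enrichment over local background (lower panel) of the TSS peak of each gene, with 1 symbol per library and colours for alpha, beta, and delta cells. Open symbols mark libraries that lack a TSS peak. Scg3 and Scg5 stand highest and Chga and Vgf lowest, and beta 2 (red squares) is low or absent at Chga, Chgb, Scg2, Scg3, Vgf, and Ptprn.

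Scg3 (chr9:75643189-75684056, minus strand) encodes secretogranin III, which binds chromogranin A and the cholesterol-rich granule membrane. Its TSS peak was among the strongest of all genes, at ranks 1765 and 952 in alpha 1 and 2, 3541, 59619, and 1385 in beta 1, 2, and 3, and 947 and 1348 in delta 1 and 2. The fold enrichment at the summit was 16.4, 19.6, 9.24, 3.52, 17.1, 18.4, and 16.7 in the same order. Beta 2 was far weaker than all other libraries and beta 1 was next, while beta 3 lay among the alpha and delta values. By median rank over the 7 libraries, 4.63% of protein-coding genes stood above Scg3. The summits of the peaks lay from 56 bp before to 32 bp after the annotated 5′ end.

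Scg5 (chr2:113776362-113829121, minus strand) encodes a chaperone of the prohormone convertase PC2. Here the TSS peak was strong without exception, at ranks 2310 and 2276 in alpha, 4810, 2733, and 3335 in beta, and 4623 and 1967 in delta libraries. Fold enrichment was 16.3 ± 1.43 (SD, n = 2) in alpha, 10.9 ± 2.34 (SD, n = 3) in beta, and 14.9 ± 1.60 (SD, n = 2) in delta libraries. Each beta value lay below each alpha and delta value on the fold scale, but not on the rank scale, where beta 2 and beta 3 were above delta 1. A fold enrichment depends on the background of its own library, so ranks were used for the test.

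Chgb (chr2:132781278-132795079, plus strand) encodes chromogranin B, a granin that promotes granule formation. Its TSS peak ranked 7141 and 6364 in alpha 1 and 2, 13656 and 10316 in delta 1 and 2, and 23988 and 22762 in beta 1 and 3, with no peak in beta 2. Fold enrichment followed the same order, with 10.2 and 11.1 in alpha, 8.26 and 8.85 in delta, and 3.97 and 4.69 in beta libraries. All 3 cell types were separate on both scales, with alpha strongest and beta weakest.

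Scg2 (chr1:79434669-79440120, minus strand) encodes secretogranin II, the precursor of the peptide secretoneurin. Its TSS peak ranked 12768 and 8757 in alpha, 31611, 76405, and 11493 in beta, and 20993 and 12723 in delta libraries. Beta 3 stood between the alpha replicates, whereas beta 1 and beta 2 were below all other libraries, so the beta replicates spread more widely than the cell types differed. Fold enrichment was 10.1 ± 2.22 (SD, n = 2) in alpha, 4.13 ± 2.61 (SD, n = 3) in beta, and 7.65 ± 0.970 (SD, n = 2) in delta libraries.

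Chga (chr12:102554969-102565028, plus strand) encodes chromogranin A, the granin most widely used as a marker of endocrine cells and the precursor of vasostatin and pancreastatin. Its TSS peak was weak wherever it was called. It ranked 101815 and 92636 in alpha 1 and 2, 85258 in beta 3, and 35969 and 59974 in delta 1 and 2, and was absent in beta 1 and beta 2. Fold enrichment was between 2.73 and 4.46, and a −log10 q of 2 was passed in delta 1 alone. Only delta 1 placed this peak among its 50000 of lowest p. The summits were scattered from 300 bp before to 239 bp after the 5′ end. With ranks past 50000 and missing peaks tied, 52.1% of protein-coding genes had a stronger median TSS rank than Chga.

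Vgf (chr5:137026392-137033351, plus strand) encodes the precursor of several secreted peptides. Its annotated 5′ end belongs to the longest transcript, and within 1 kb of it the peaks of alpha 2 (rank 51637) and beta 3 (rank 96569) were the only ones. The other 3 annotated transcripts start 3903, 3972, and 4309 bp further downstream. When any transcript start was allowed, every library had a peak within 1 kb of one. In 6 libraries that peak lay at the downstream starts, with ranks of 29136 and 37179 in alpha 1 and 2, 512681 and 30447 in beta 1 and 2, and 133033 and 41307 in delta 1 and 2. Whether a peak was called at Vgf thus depended on which start was taken. The downstream peak was also weak, with a fold enrichment of 1.75 to 4.85, and beta 3 kept only its upstream peak. With a −log10 q of at least 2, a peak at any start was found in 4 of 7 libraries.

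Ptprn (chr1:75247027-75264502, minus strand) encodes IA-2, an autoantigen of type 1 diabetes. Its TSS peak ranked 16158 and 9872 in alpha, 12490 and 39235 in beta 1 and 3, and 21624 and 19293 in delta libraries, with none in beta 2. Beta 1 lay between the alpha replicates and beta 3 was the weakest of those with a peak. The summits lay 182 to 278 bp inside the gene in each of these 6 libraries.

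Ptprn2 (chr12:116485720-117276849, plus strand) encodes phogrin, the paralogue of IA-2, and at 791130 bp is by far the longest of the 8 genes. Its TSS peak ranked 7450 and 13174 in alpha, 8360, 4748, and 5614 in beta, and 15417 and 7009 in delta libraries. By rank, this gene alone had beta libraries in the lead, with beta 2 and beta 3 above all others. The delta replicates alone spanned most of the range from 4748 to 15417. On the fold scale beta did not lead, with 10.5 and 7.34 in alpha, 6.47, 8.75, and 9.82 in beta, and 7.04 and 9.68 in delta libraries. Ptprn and Ptprn2, which encode related proteins, thus differed in beta 2, where Ptprn had no TSS peak and Ptprn2 had its best rank.

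To test whether TSS ranks differed between cell types, the cell type labels of the libraries were permuted in all 210 ways and log10 ranks were compared. Ranks past 50000 and missing peaks shared 1 value. None of 18015 genes tested passed an adjusted p of 0.05 in the exact permutation test, and 1362 (7.56%) had an unadjusted p under 0.05. Of the 8 genes, Chgb was the only one among them. Its exact permutation p was 0.00952, the smallest that this design allows and the value of 320 genes in all, and its adjusted p was 0.536. For the other 7 genes the exact permutation p lay between 0.295 and 1. The order of Chgb depended on how weak peaks were scored. When peaks were placed by percentile in the full list, the Chgb peak stood at 94.6 and 94.3 in alpha, 95.4 and 78.1 in beta 1 and 3, and 91.4 and 86.4 in delta libraries, and the exact permutation p was 0.695. The long list of beta 1 moved that library to the top. When cell types were permuted within lane code only, the exact permutation p of Chgb was 0.0556, which is the smallest that the 18 possible assignments give. No difference between cell types passed the adjusted threshold at any of the 8 genes. With 210 assignments that threshold could be passed only if far more genes than these 320 had the lowest p-values. The cell types are therefore not shown to be alike.

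Promoter sequences were read to see what the open 5′ ends hold. RefSeq windows on GRCm38.p6, from 250 bases before to 50 after a transcription start, were matched by symbol for 7 of the 8 genes, with 2 starts for Ptprn. No window was found for Vgf. Of 8 motifs searched on both strands, 3 were present in these 8 windows, and no match overlapped another. The GC box GGGCGG occurred in the windows of Chga, Chgb, Scg5, Ptprn, and Ptprn2, or 5 of 7 genes, and in 35.7% of all 32851 windows. The cAMP response element TGACGTCA occurred at Chgb and Scg2, and in 1.79% of all windows. The element is bound by CREB and related factors and is palindromic, so it reads the same on both strands. The left arm of the REST element, TCAGCACC, occurred at Scg2 and Ptprn2, and in 1.65% of all windows. REST represses neuronal and endocrine genes in other tissues. The AP-1 motif TGANTCA (7.81% of all windows), the E-box CAGATGG (5.30%), the forkhead motif TGTTTAC (3.65%), the homeodomain motif TAATTA (5.29%), and the RFX motif GTTGCCA (4.38%) were not found in any of these 8 windows.

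The cAMP response elements of Chgb and Scg2 are shown because both lie inside the TSS peak of every library that has one. The 30 bases around each are given in the direction of the gene on GRCm38.p6, with the element in capitals. They span chr2:132781559-132781588 (plus strand) at Chgb and chr1:79440076-79440105 (minus strand) at Scg2.
Chgb: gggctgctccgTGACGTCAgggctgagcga
Scg2: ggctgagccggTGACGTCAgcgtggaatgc
At Scg2 the element was held by the TSS peak in 7 of 7 libraries. Its middle lay 4.5 to 68.5 bp from the summits, with a median of 9.5 bp, so the summits sat near the element in most libraries. At Chgb it was held by 6 of 6 TSS peaks, at 2.5 to 154.5 bp from the summits and a median of 45.5 bp. The element starts 72 bases before the RefSeq start of Chgb and 68 before that of Scg2, and in the longer GENCODE models it falls in the first exon of both genes.

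The Ptprn2 promoter is shown as the second of the promoters with the REST arm, after that of Scg2. The bases printed for Scg2 and Ptprn2 do not include the arm itself. At Scg2 the arm begins 7 bases before the RefSeq start and was held by 6 of 7 TSS peaks. At Ptprn2 it begins at base 14 of the gene, was held by 7 of 7 TSS peaks, and lay a median of 32.5 bp from the summits. The 250 bases before the start, chr12:116485470-116485719 on the plus strand of GRCm38.p6, are given with the GC box in capitals.
Ptprn2: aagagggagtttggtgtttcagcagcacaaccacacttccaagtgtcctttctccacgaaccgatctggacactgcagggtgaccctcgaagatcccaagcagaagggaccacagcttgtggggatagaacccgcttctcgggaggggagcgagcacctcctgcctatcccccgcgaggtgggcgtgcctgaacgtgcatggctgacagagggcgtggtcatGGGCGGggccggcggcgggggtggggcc
GC content of the windows ran from 50.7% at Scg2 to 72.7% at Chgb, against a median of 52.7% over all windows. All 8 windows held more than the median of 7 CpG dinucleotides, from 9 at Scg5 to 31 at Chgb. Chga, with the weak peak, had 21 CpGs and 62.0% GC, and Scg3, with the strongest, had 18 CpGs and 55.7% GC.

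Peak numbers over the whole loci were compared next, among the 50000 peaks of lowest p of each list. The locus of Scg3 held 6 and 6 peaks in alpha, 5, 5, and 9 in beta, and 10 and 7 in delta libraries. Scg5 held 6 and 7, then 6, 4, and 6, then 7 and 7 in the same order. Ptprn held 7 and 5, then 4, 4, and 3, then 7 and 4. Chga held 0 to 4, Chgb 0 to 2, and Scg2 1 to 3, with beta 2 lowest or tied for lowest in each. Per 10 kb of locus, the median number over libraries was highest at Scg3 (0.742), followed by Ptprn (0.696), Scg5 (0.647), Vgf (0.639), Chga (0.599), Ptprn2 (0.481), Scg2 (0.440), and Chgb (0.186). The median over all protein-coding genes was 0.260, with quartiles of 0.140 and 0.455. Chgb was the one gene below that median, and its TSS peak was the only strong peak of its locus in alpha 1, alpha 2, and delta 1.

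Vgf was the gene with the lowest p for a difference in peak number between cell types. Its locus held 4 and 5 peaks in alpha 1 and 2 and 3 and 4 in delta 1 and 2, but 0, 2, and 1 in beta 1, 2, and 3. Every alpha and delta library was above every beta library. None of 20953 genes passed an adjusted p of 0.05 in the exact permutation test of locus peak numbers, and 1176 (5.61%) had an unadjusted p under 0.05. Vgf was the only one of the 8 genes among them, with an exact permutation p of 0.0476 and an adjusted p of 0.808. Without the flanks, which hold the 5′ end of Ap1s1 as well, its exact permutation p was 0.486. With all peaks, scaled to the length of each list, it was 0.362. For the other 7 genes the exact permutation p was between 0.238 and 1.

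**Figure D2:**
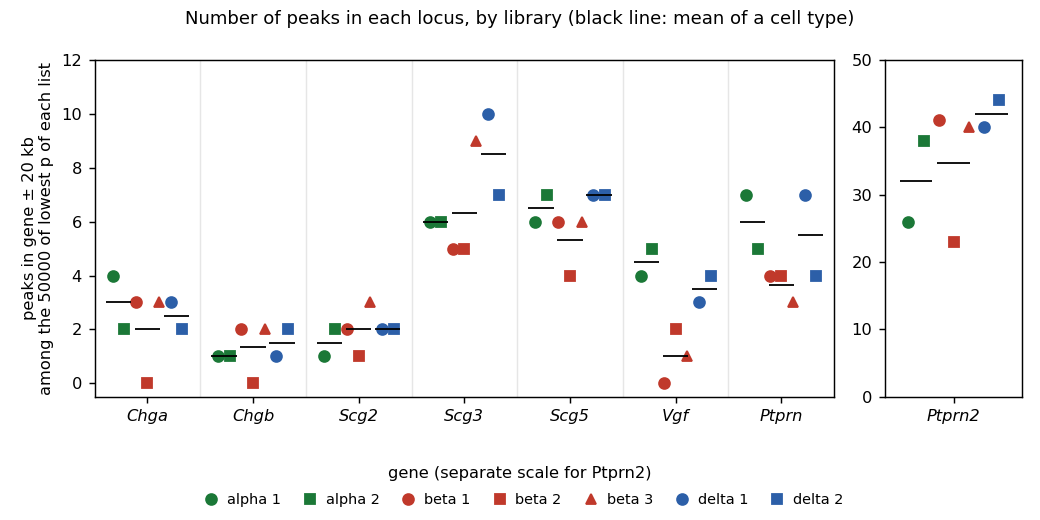
Number of peaks among the 50000 of lowest p of each list in the gene body with 20 kb on each side, by gene and library, with black lines for the mean of a cell type. Ptprn2 has a scale of its own. The beta libraries (red) lie at 0 to 2 for Vgf, below the 3 to 5 of alpha and delta libraries, and overlap with them elsewhere.

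Peaks were then merged across libraries to find which sites recur. Of the 498 regions in the 8 loci, 346 (69.5%) were called in 1 library, against 84.0% of all merged regions. In 188 of the 346 (54.3%), and in 59.3% of all merged regions of 1 library, that library was beta 1. The other 152 (30.5%) recurred in at least 2 libraries, against 16.0% of all merged regions, and 21 of them were called in all 7. The 21 are 4.22% of the regions, against 2.13% of all merged regions. Both shares were higher in the 8 loci than among all merged regions, whereas among the regions of at least 2 libraries the share called in all 7 was 13.8% in the loci and 13.3% in the whole set. Of the 21, 4 were the TSS regions of Scg2, Scg3, Scg5, and Ptprn2, 3 lay at the 5′ ends of neighbouring genes, and the remaining 14 were in introns, flanks, or a UTR. No region of the Chgb locus was called in every library. Ptprn2 held 10 of the 21, but per 10 kb of locus it held 0.120 of them, against 0.371 at Scg3, 0.348 at Ptprn, and 0.323 at Scg5.

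**Figure D3:**
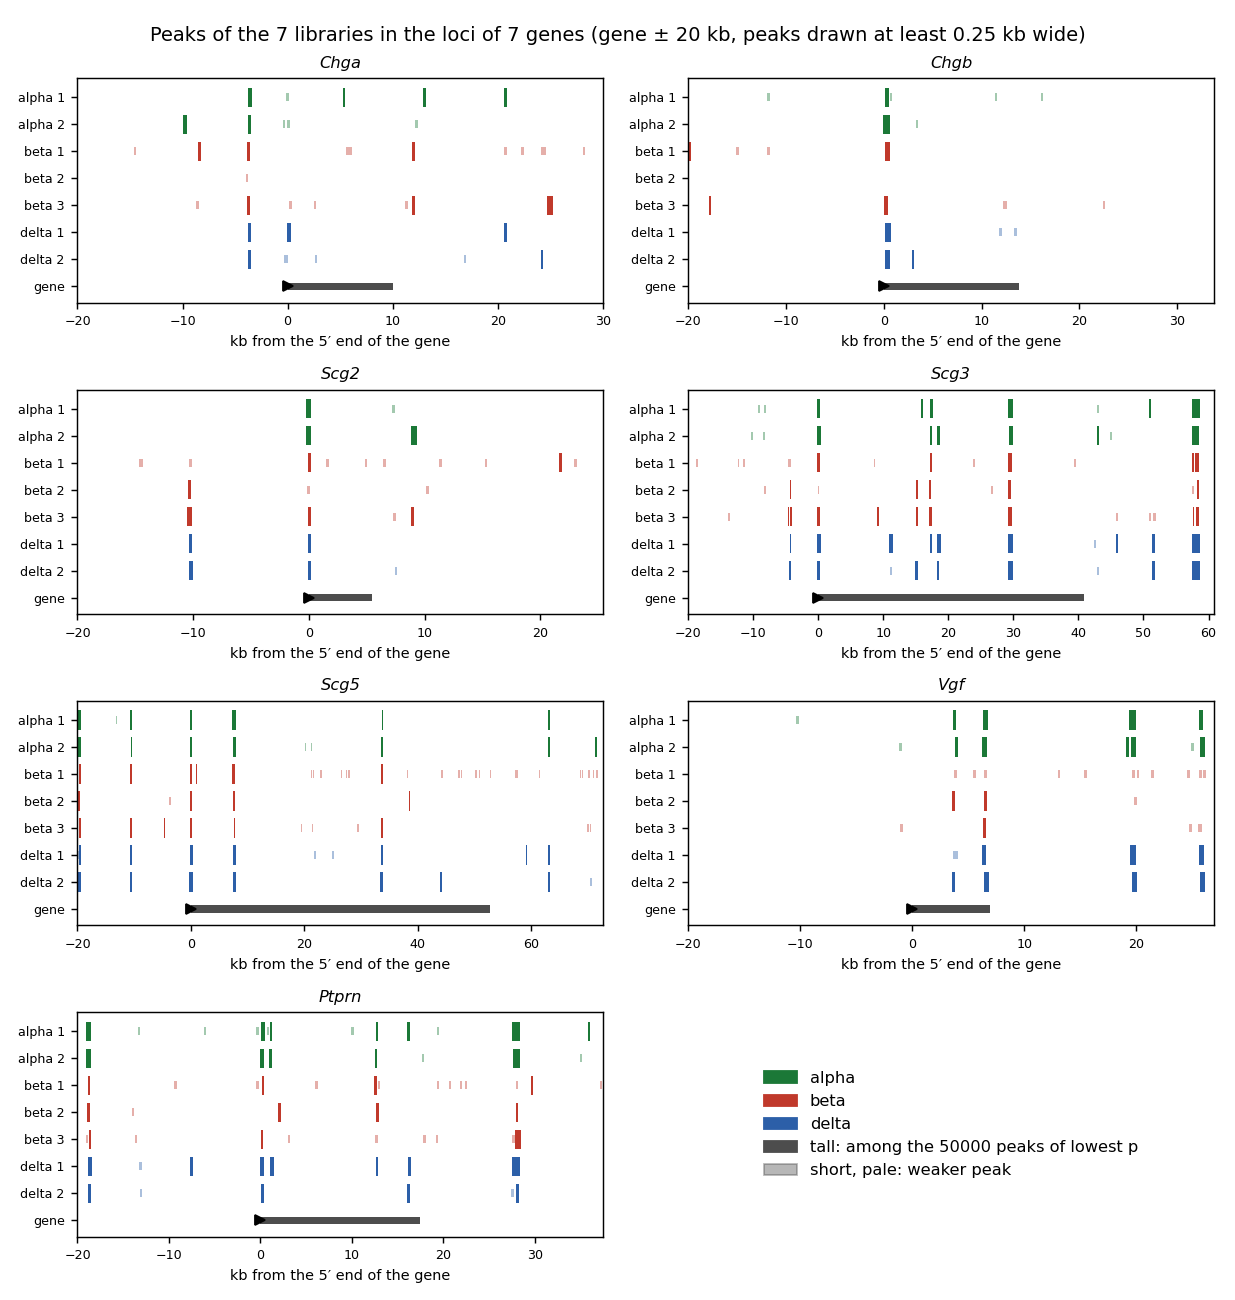
Peaks of each library in the loci of 7 genes, by distance in kb from the 5′ end in the direction of the gene, with the gene body as a dark bar. Tall marks are among the 50000 peaks of lowest p of a list and short pale marks are weaker. Columns of marks are regions shared between libraries, such as the TSS of Scg5 and its intronic region at 7.7 kb, and Chgb shows a single column, at its 5′ end.

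Regions away from any 5′ end included some as strong as a promoter. Inside Scg5, in an intron 7.7 kb from the 5′ end, chr2:113821158-113821860 ranked 5355 and 3082 in alpha, 25969, 6342, and 23049 in beta, and 13824 and 7914 in delta libraries. Fold enrichment there was 12.04 and 15.7 in alpha against 3.79, 7.79, and 4.76 in beta and 7.87 and 10.3 in delta libraries. The alpha libraries were highest on both scales. By fold enrichment beta 2 was close to delta 1, whereas by rank it was above both delta libraries. A second region, chr2:113839426-113839925, lies 10.5 kb upstream of Scg5, ranked 4069 to 10951 in 6 libraries, and was missing in beta 2. In Scg3, the intronic region chr9:75654079-75654901, 29.5 kb inside the gene, ranked 10642 and 6149 in alpha, 3441, 29631, and 10096 in beta, and 16565 and 13311 in delta libraries. By rank, unlike at the Scg3 promoter, beta 1 was the strongest here, whereas by fold enrichment alpha 2 (12.2) was above beta 1 (9.86). Another Scg3 intronic region, at 17.3 kb, ranked 12043 to 35822 in 6 libraries and was not called in delta 2.

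At Ptprn, the most regular region lay 18.7 kb upstream, beyond the neighbouring gene Resp18. It covered chr1:75282952-75283615 and ranked 14037 and 4527 in alpha, 8446, 12630, and 24539 in beta, and 10656 and 6760 in delta libraries. It outranked the TSS peak of Ptprn itself in each of the 6 libraries that had both. A region over a Ptprn exon, 12.7 kb inside the gene, ranked 31430 to 73592 in 6 libraries and was absent in delta 2. At Chga, a region 3.6 kb upstream of the gene, chr12:102550972-102551573, ranked 20820 and 16128 in alpha, 24243, 55158, and 38623 in beta, and 44595 and 38014 in delta libraries. It was called in every library, including the 2 beta libraries without a Chga TSS peak, and only in delta 1 was the TSS peak the stronger of both. Alpha libraries were highest in this region on both scales. By rank beta 1 followed, whereas by fold enrichment delta 1 (4.0) and delta 2 (4.27) were above beta 1 (3.91).

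At Vgf, the region called in every library was at the other end of the gene. It covered chr5:137032650-137033212, across the end of the coding sequence and the start of the 3′ UTR. It ranked 17638 and 12058 in alpha, 77896, 29440, and 12674 in beta, and 26084 and 30766 in delta libraries, with a fold enrichment of 2.59 to 8.33. In each library it outranked the peak at the starts of Vgf. A flanking region 25.8 kb from the 5′ end of Vgf ranked 24328 to 49445 in alpha and delta libraries, 343360 and 102395 in beta 1 and 3, and was missing in beta 2. At Scg2, a region 10.3 kb upstream was found in 5 libraries, with ranks of 91783, 19045, and 41228 in beta 1, 2, and 3 and 37195 and 31398 in delta 1 and 2. Neither alpha library had a peak there, although their TSS peaks of Scg2 were strong. The second region of Scg2, 7.4 kb inside and past the gene, ranked 73597 to 104441 in 3 libraries. The regions away from the promoter of Chgb, 11.8 kb and 17.8 kb upstream, were found in 2 and 1 libraries. A second region of Chga, 11985 bp downstream of the 5′ end, ranked 93401 in alpha 2, 25762 in beta 1, and 15402 in beta 3.

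The sequences under the summits of 3 of these regions are shown, taking the best median rank per gene among those called in every library. Each is 200 bases of the plus strand of GRCm38.p6 centred on the summit of the strongest library, with motif matches in capitals. The first is in an intron of Ptprn2, 621.8 kb inside the gene (chr12:117107448-117107647), and held none of the 8 motifs. The second is the Scg5 intron at 7.7 kb (chr2:113821362-113821561), with AP-1 matches 27 bases before and 20 bases after the summit and an E-box between them. The third is the Scg3 intron at 29.5 kb (chr9:75654491-75654690), with the REST arm on its minus strand.
Ptprn2 intron: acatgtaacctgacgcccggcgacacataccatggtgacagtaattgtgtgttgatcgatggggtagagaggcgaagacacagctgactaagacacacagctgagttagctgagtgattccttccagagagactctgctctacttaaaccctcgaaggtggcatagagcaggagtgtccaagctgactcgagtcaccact
Scg5 intron: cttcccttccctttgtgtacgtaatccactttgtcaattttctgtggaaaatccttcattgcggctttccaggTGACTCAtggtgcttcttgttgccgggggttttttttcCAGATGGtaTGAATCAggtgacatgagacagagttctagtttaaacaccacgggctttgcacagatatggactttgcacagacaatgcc
Scg3 intron: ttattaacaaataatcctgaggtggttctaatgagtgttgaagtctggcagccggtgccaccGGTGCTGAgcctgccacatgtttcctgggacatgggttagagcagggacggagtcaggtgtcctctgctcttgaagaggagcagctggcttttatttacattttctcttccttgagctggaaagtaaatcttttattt
In all, 20 regions of the 8 loci away from 5′ ends were read in this way, some of them called in few libraries or taken for their cell type pattern. They were set against 9640 windows of the same length around regions called in every library away from 5′ ends. The 20 regions and these windows thus differ in recurrence, and the shares are not strictly comparable. The AP-1 motif was held by 7 of the 20 regions, in 5 genes, and by 23.7% of the 9640 windows. The E-box was held by 4, against 7.74%, and the forkhead motif by 2, against 7.20%. The REST arm, the RFX motif, and the GC box were each held by 1 region, against 1.41%, 5.15%, and 16.1%. The cAMP response element, at 0.923%, and the homeodomain motif, at 5.86%, were not found in these 20 windows.

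Regions limited to a cell type were sought as those with peaks in at least 2 replicates of that type and in no other library. In the 8 loci 8 were found. None was alpha-only, against 0.388% of all merged regions. Once weak peaks were dropped by q-value (−log10 q below 2), 2 of 128 regions in the loci met the definition, against 2754 of 111614 in the whole set. When each list was cut to its 50000 peaks of lowest p, 2 of 172 did, against 2037 of 156992. Without beta 2 there was 1 of 483, against 3481 of 793199. Without delta 1 there were 2 of 464, against 4877 of 761319, and without delta 2 there were 2 of 483, against 3784 of 819456. Of the others, 5 of 498 (1.00%) were beta-only against 1.72%, and 3 of 498 (0.602%) were delta-only against 0.329%. Among regions of at least 2 libraries, beta-only regions were 5 of 152 (3.29%) against 10.7% of all such regions. Delta-only regions were 3 of 152 (1.97%) against 2.06%, and none was alpha-only against 2.42%. By that measure the beta-only share was below the background and the delta-only share was near it. Much of the beta-only background rests on beta 1, since 14335 such regions fell to 1752 without that library. Without beta 1 the loci held 2 beta-only regions of 315, against 1752 of 420707 in the whole set. With a −log10 q of at least 2 they held 3 of 128, against 1329 of 111614. In both settings the share was higher in the loci. Among the 50000 peaks of lowest p it was lower, with 2 of 172 against 2572 of 156992, so the direction depended on the setting. The regions in the 8 loci were few and weak. All were in the loci of Ptprn2, Scg3, and Chga. The one with both peaks among the 50000 of lowest p was a delta-only region in an intron of Ptprn2, chr12:117044129-117044580, at 558.6 kb. It ranked 34915 in delta 1 and 37273 in delta 2, with a fold enrichment of 4.80 and 4.10, and had no peak in any alpha or beta library. A delta-only region in Scg3, 11.2 kb inside the gene, ranked 25842 and 61029. The only beta-only region with a peak in all 3 beta libraries, in Ptprn2 at 519.8 kb, ranked 501417, 77688, and 81538. The beta-only region 8.4 kb upstream of Chga ranked 28514 in beta 1 and 74126 in beta 3.

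A further 2 of 498 regions (0.402%) were called in both alpha and both delta libraries and in no beta library, against 0.228% of all merged regions. Among regions of at least 2 libraries the shares were 1.32% in the loci and 1.43% in the whole set. One of the 2 regions was strong. It lay on the 3′ side of Scg5, 63.1 kb from its 5′ end and beyond the end of the gene, at chr2:113765764-113766165. It ranked 26716 and 11415 in alpha and 30427 and 7700 in delta libraries, with fold enrichments between 5.13 and 11.1. Grem1, a gene for a secreted BMP antagonist, starts on that side of the locus. No single merged region at its own 5′ end was called in more than 3 libraries. The other was in an intron of Ptprn2 at 568.3 kb, with ranks of 32308, 27419, 44320, and 67290. With peaks of a −log10 q of at least 2, this class held 4 of 128 regions in the loci, against 2681 of 111614 in the whole set. Without beta 2 the class held 3 of 483, against 2406 of 793199. Without beta 1 it held 5 of 315, against 4612 of 420707, and without beta 3 it held 8 of 477, against 2973 of 786769. Without 1 of the alpha or delta libraries it held 4 or 5 regions, against 2452 to 3501 in the whole set.

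Ptprn2 holds 348 of the 498 regions, in a locus of 831130 bp. Among the 50000 peaks of lowest p it had 26 and 38 in alpha, 41, 23, and 40 in beta, and 40 and 44 in delta libraries, with an exact permutation p of 0.495 and an adjusted p of 1. Of the 348 regions, 326 were in introns, 248 were called in 1 library, and 100 recurred. The 10 called in every library were the TSS region and 9 intronic ones. They gathered in stretches, with 3 between 92.2 and 102.0 kb from the 5′ end and 3 between 668.1 and 714.6 kb. The strongest of them by median rank, at 621.8 kb, was ahead of the TSS region (7149 against 7450) and ranked 31296 and 12756 in alpha, 4113, 7108, and 4572 in beta, and 7752 and 7149 in delta libraries. All beta libraries were above all others in rank, although beta 2 was ahead of delta 2 by a few ranks only. On the fold scale they were not, with 9.16, 7.32, and 11.7 in beta 1, 2, and 3, 4.55 and 8.41 in alpha 1 and 2, and 10.4 and 10.5 in delta 1 and 2. The region at 102.0 kb ranked 7649 and 8812 in alpha, 18084, 7242, and 12529 in beta, and 6829 and 8272 in delta libraries, and showed no such order.

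**Figure D4:**
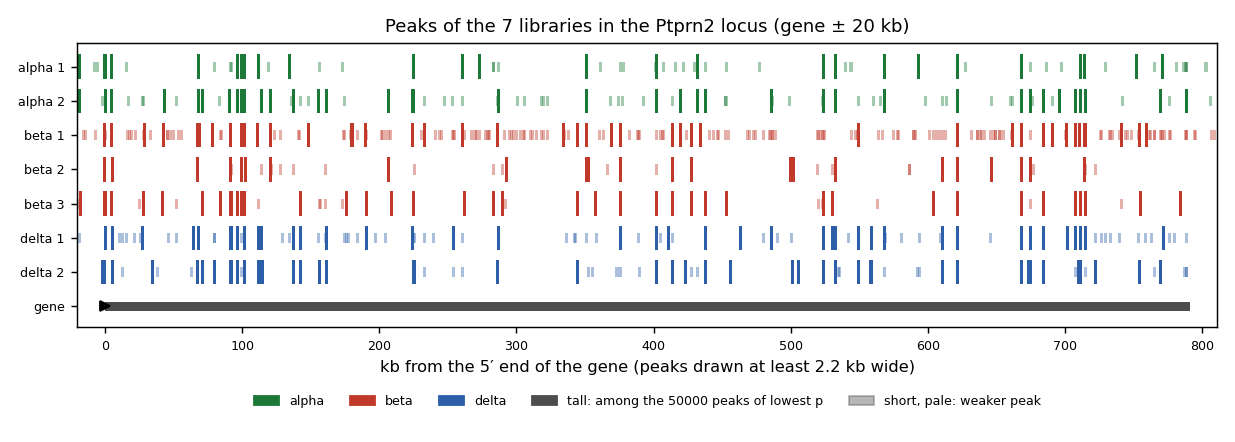
Peaks of each library across the Ptprn2 locus, by distance in kb from the 5′ end, with tall marks among the 50000 peaks of lowest p of a list and short pale marks weaker. Marks run along the whole gene in every library, with a dense group near 100 kb, and beta 1 has many pale marks, with 204 peaks in the locus against 41 to 95 in the others.

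Other genes of granule biogenesis and exocytosis were examined for comparison, from a list of 27. TSS peaks in all 7 libraries were found for 16 (59.3%), against 41.9% of all protein-coding genes. With a −log10 q of at least 2 they were found for 12 (44.4%), against 31.3%. The median of their median ranks was 14949, against 13212 for the 8 genes and 39187 for all protein-coding genes. Cpe, which trims processed hormones, ranked 1089 to 3143 in every library, and Pcsk2, the convertase that Scg5 assists, ranked 2373 to 9283. Those with the fewest TSS peaks were Slc18a2, a monoamine transporter, with 1 library, and Vamp2, a granule SNARE, with 4. Resp18, Rph3al, Stx1a, and Sytl4 had 5 each. Resp18, a granule protein encoded next to Ptprn, ranked 56922 to 134772 in these 5 libraries, far below Ptprn. None of the 27 passed an adjusted p of 0.05 in the exact permutation test in either direction. An unadjusted p under 0.05 in that test was reached by 4 of the 27, against 1362 of 18015 genes tested (7.56%). The 4 were Slc30a8, Stx1a, Cadps, and Nucb2, which were picked out after their values were seen. For Stx1a and Cadps the exact permutation p was 0.00952 and the adjusted p was 0.536. Cadps ranked 2553 and 2424 in alpha, 5773, 5337, and 6283 in beta, and 13653 and 13328 in delta libraries.

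Genes with the most similar TSS ranks over the 7 libraries were found by the Euclidean distance of log10 ranks. The nearest was Elavl4 to Scg5 (0.189), Entpd1 to Scg3 (0.404), Gramd3 to Chgb (0.167), Impa2 to Scg2 (0.150), Pdlim7 to Ptprn (0.202), and Klf4 to Ptprn2 (0.258). Like Chgb, Gramd3 ranked 7187 and 6098 in alpha, 15450 and 9508 in delta, and 16862 and 22396 in beta 1 and 3, and was not among the 50000 of beta 2. For Chga, nearest to Zfp383 at 0.00343, only delta 1 carried information. For Vgf, nearest to 1110002E22Rik at 0, none of the 7 did.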

How the data were processed

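Peak lists of 7 ATAC-Seq libraries were analysed, and the cell type and replicate of each were taken from its label. According to the submitters' processing notes and the methods of the study, the authors trimmed reads with Trimmomatic, aligned them with Bowtie2 to mm10, marked duplicates with Picard, and called peaks with MACS2 per library. The −log10 p and −log10 q values were made by the authors with MACS2, as was the deposited score, which is 10 times the −log10 p. The fold enrichment is the authors' ratio of the signal at a summit to the local background. Tool versions are not given in the sources used here. Every list reached down to a −log10 p of 2.01, and lists hold no reads per region, so the reads behind a peak are unknown and no limit of detection was set. The quality table of the study lists unique reads per library, but it holds a further beta replicate, so its numbering was not tied to the labels here.

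Repeated intervals were counted once. Peaks were ranked by −log10 p, ties by fold enrichment, and assigned to GENCODE M21 genes (window 20 kb for loci, 1 kb for a TSS). Peaks sharing 1 bp or more were merged. Log10 TSS ranks and locus peak numbers were compared by an exact permutation test without direction, with Benjamini-Hochberg adjustment over all protein-coding genes tested. The smallest p is 0.00952. Regions named in the text are the TSS region and the 2 most recurrent regions away from a TSS of each locus, and regions of 1 cell type with peaks among the 50000 of lowest p in at least 2 replicates. The other regions of 1 cell type or of alpha and delta cells were named after their values were seen. Steps were tested on simulated data and merging was checked against bedtools 2.31.1. Python 3.11.15 with numpy 2.4.6 and pandas 2.3.3 was used. The genes, lists, and motifs were chosen with earlier results of these data known. Motifs were searched in RefSeq promoter windows of GRCm38.p6. Alternatives were other peak filters, windows, and scales, a coverage rule, permutation within replicate number or lane code, and each library left out in turn.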

Additional observations from a re-analysis of the deposited data

How the results depend on the processing

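No result across genes passed an adjusted p of 0.05 under any alternative, but the design allowed little else. The smallest exact permutation p of the main tests was 0.00952. To pass, far more genes than the 320 (TSS rank) or 157 (locus peak number) observed there would have been needed. Within replicate number or lane code (smallest exact p 0.0556) or without a beta library (0.0667), no adjusted p under 0.05 was possible. The number of the 8 genes with a TSS peak in every library was 2 with a −log10 q of at least 2, 2 among the 50000 peaks of lowest p, and 4 to 6 with a library left out. Genes with an unadjusted exact p under 0.05 for TSS rank numbered 532 by percentile in the full list, 0 within lane code, and 0 to 780 with a library left out. For locus peak number they were 721 without the flanks, 0 within lane code, and 0 to 426 with a library left out. Under the replicate block both counts were 0, as they were within lane code, since the smallest exact p of either is 0.0556. Correlations of deviations between libraries of the same number ran from −0.0422 to 0.0115. With 2 alpha and 2 delta replicates, the deviations within each of these cell types mirror each other, so this check could neither show nor exclude pairing. Alpha and delta libraries stem from different crosses, so only beta libraries can share animals with them. The fits without a beta library cannot go below an exact p of 0.0667 and say nothing about stability.

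Merged regions in the loci numbered 128 with a −log10 q of at least 2, 172 among the 50000 peaks of lowest p, and 315 to 483 with a library left out, lowest without beta 1. Regions in every library were 10, 11, and, with coverage of at least 0.5 of a region, 6, against 11063, 12633, and 7383 in the whole set. With a library left out they were 21 to 27, against 17924 to 21903. Regions of 1 cell type were 5 to 17 with a library left out, lowest without beta 3 and highest without alpha 2, against 11756 to 21671 in the whole set. Chgb kept an exact p of 0.00952 with a TSS window of 3 kb, with any transcript start, and among peaks past a −log10 q of 2, and had 0.0333 to 0.0667 with a library left out. Vgf had an exact p of 0.0833 to 0.133 for locus peak number with a library left out. Of 67 alternatives to the main counts, 36 stayed within 1.5 times and 31 moved. Without reads per region, a missing peak can be a weak one.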

Other observations

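The windows of the 8 genes also held the 5′ ends of neighbouring genes. Lysmd2, past the 3′ end of Scg3, had a peak in every library at ranks of 4895 to 31428, the lowest in beta 2. Dnajb2, which encodes a co-chaperone and lies past the 3′ end of Ptprn, ranked 2294 to 11968 in 6 libraries and 72193 in beta 1. Ap1s1, which encodes a subunit of the clathrin adaptor complex of the trans-Golgi network, lies past the 3′ end of Vgf. It ranked 21015 and 29336 in alpha, 29468 and 34658 in delta, and 486024 and 81294 in beta 1 and 2, with no peak in beta 3. The lower beta values at Ap1s1 are part of the locus peak numbers of Vgf, and neither was past the adjusted threshold. At the 5′ ends of Resp18 and Grem1 no single merged region was called in more than 3 libraries. Counted by gene, Resp18 had a TSS peak in 5 libraries.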
